A study of Mus musculus with 11 samples.

Results

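The EGF family ligands and their ErbB receptors were followed in the basal and luminal epithelium of terminal end buds (TEBs) and ducts. The 10 genes were chosen by name, and each was matched to its Entrez identifier in the count table. They were the ligands Areg, Btc, Ereg, Hbegf, Tgfa and Nrg1 and the receptors Egfr, Erbb2, Erbb3 and Erbb4, out of 27179 identifiers. All 10 passed the filter on low counts, which left 17370 genes for testing.

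TEBs, the growing tips of the pubertal ductal tree, and the ducts behind them were micro-dissected from mammary glands of C57BL/6 females carrying Ecadherin-GFP, aged 5 weeks. Both cell populations were negative for lineage markers and positive for CD24 and CD29. Luminal cells were the Ecadherin-GFP high fraction and basal cells the low fraction, so that Cdh1, which encodes E-cadherin, was part of the sort. No group carried a treatment, and all groups carried the reporter. Bulk RNA-seq gave 11 libraries, 3 each for basal duct, basal TEB and luminal TEB and 2 for luminal duct (replicates 1 and 3). Each library came from a pool of at least 2 mice.

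Ligands of this family are made as membrane-bound precursors that proteases release, and they bind ErbB receptors on the same or on neighbouring cells. Egfr binds Areg, Tgfa and Epgn, and both Egfr and Erbb4 bind Hbegf, Btc and Ereg. The neuregulins Nrg1 and Nrg2 bind Erbb3 and Erbb4. Erbb2 has no known ligand and acts as the partner of the other receptors, whereas Erbb3 has little kinase activity of its own. In the pubertal mammary gland, Areg is known as an oestrogen target whose product drives ductal outgrowth through Egfr.

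Totals ran from 27989137 to 49221436 counts per library, and mitochondrial genes took 4.34 to 37.5% of them. The share was above 25% in basal TEB replicate 1 (37.5%) and luminal duct replicate 3 (28.5%). Summed basal markers lay between 5570 and 19662 CPM (read counts scaled to library size) in basal libraries and between 13.9 and 243.6 CPM in luminal libraries. Summed luminal markers, Cdh1 among them, lay between 422 and 647 CPM in basal libraries and between 13057 and 19698 CPM in luminal libraries. Summed fibroblast markers were higher in every basal duct library (430 to 840 CPM) than in basal TEB (226 to 406 CPM). They were 6.03 CPM in luminal duct replicate 1 and 249.7 CPM in luminal duct replicate 3, and 11.7 to 53.1 CPM in luminal TEB. Adipocyte markers were highest in basal duct replicate 2 (186.8 CPM) and luminal duct replicate 3 (75.1 CPM). In these sorted bulk libraries, fewer cells of a type and less RNA per cell cannot be told apart.

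Ligand and receptor transcripts were divided between the populations. Luminal cells held Areg and Btc, together with more Erbb2 and Erbb3, while basal cells held Nrg1 and most Egfr transcript. Between basal and luminal duct, 6 of the 10 genes passed an FDR of 0.05 in edgeR's quasi-likelihood test, where 22.3% of all genes tested did so. Of these, 2 were higher in basal cells (Nrg1 and Egfr), against 12.6% of all genes, and 4 were lower (Areg, Btc, Erbb2 and Erbb3), against 9.71%. Between basal and luminal TEB, 7 of the 10 passed, against 25.1% of all genes. The same genes passed in the same directions, and Hbegf was added to those lower in basal cells, making 2 higher (13.2% of all genes) and 5 lower (11.8%). The count of 7 in TEBs was identical under every alternative setting run, and that of 6 in ducts under all but the likelihood ratio test and DESeq2, which added Ereg.

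**Figure D1:**
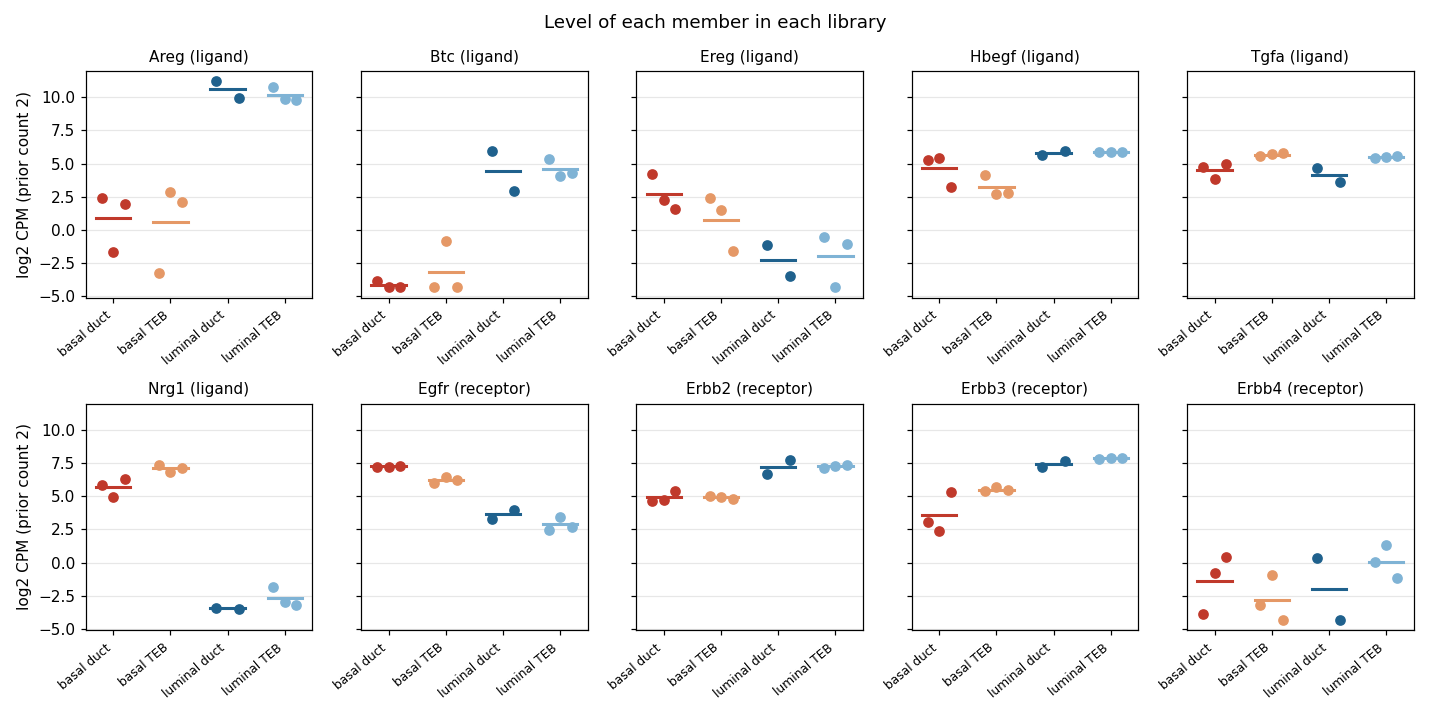
Level of each of the 10 genes in the 11 libraries, as log2 CPM with a prior count of 2 (y axis), by group (x axis); each point is a library and each bar a group mean, and the prior count places a library without reads just above -5. Areg and Btc sit higher in all luminal than in all basal libraries, and Nrg1 and Egfr the other way round.

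Areg, which encodes amphiregulin, was the most abundant ligand of luminal cells per transcript length. Its level was 2385 and 1002 CPM in luminal duct replicates 1 and 3, and 1790, 934 and 892 CPM in the luminal TEB libraries. In basal duct it was 5.29, 0.26 and 3.80 CPM, and in basal TEB 0.06, 7.20 and 4.26 CPM. Every luminal library was far above every basal library, and the basal libraries differed widely among themselves. Areg was lower in basal than in luminal cells by a log2 fold change of -9.07 ± 1.28 (SE) in ducts (adjusted p = 2.98e-04, edgeR) and of -8.23 ± 1.22 in TEBs (adjusted p = 3.29e-04, edgeR). Leaving out basal duct replicate 1 gave -9.69 in ducts, and leaving out luminal duct replicate 1 gave -8.31. In TEBs the value was -9.03 when basal TEB replicate 2 was left out. As a share of the luminal mean of the same region, Areg stood at 0.0155 to 0.312% in basal duct and 0.00479 to 0.597% in basal TEB. The summed luminal markers of those libraries stood at 3.87 to 3.95% and 2.84 to 3.26% of their luminal mean.

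Btc, betacellulin, was present in luminal cells alone apart from 25 reads. Its level was 62.5 and 7.40 CPM in luminal duct and 39.9, 16.9 and 19.4 CPM in luminal TEB. A single read was counted in basal duct, in replicate 1, and all 24 reads of basal TEB came from replicate 2. The ratio of luminal to basal duct was 5445.5 (95% interval 976.6 to 215160), and that of luminal to basal TEB 103.3 (69.3 to 161.4), both exact intervals of counting error only. The duct ratio was 940.9 (166.7 to 37367.2) without luminal duct replicate 1 and 7938.7 (1423.7 to 313675.9) without replicate 3, and without basal duct replicate 1 no read was left in basal duct. Btc passed the edgeR test in ducts (adjusted p = 3.83e-04) and in TEBs (adjusted p = 0.00151). Without basal TEB replicate 2 no Btc read was left in basal TEB.

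Areg and Btc lie beside 2 other genes of the family on chromosome 5. Epgn (epigen), Ereg (epiregulin), Areg and Btc were the 4 protein-coding genes annotated in the 375.5 kb from 91027517 to 91402994 in GRCm38 (mm10), in that order. Areg spans 91139599 to 91148432, Ereg 91074617 to 91093649 and Btc 91357261 to 91402994. Epgn was measured at 27.3 and 10.5 CPM in luminal duct and 25.4, 6.71 and 11 CPM in luminal TEB, against 8.72, 4.71 and 1.13 CPM in basal duct and 0, 2.06 and 0.42 CPM in basal TEB. It was lower in basal than in luminal TEB (log2 fold change -4.06 ± 1.21, adjusted p = 0.0275, edgeR), a call that was lost without basal TEB replicate 3 (adjusted p = 0.0987), luminal TEB replicate 1 (0.112) or luminal TEB replicate 3 (0.0543). In ducts the Epgn groups did not overlap, as was so for 46% of all genes. The difference of -1.96 ± 1.18 did not pass (adjusted p = 0.259, edgeR), nor did it in any of 24 alternatives.

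Ereg ran the other way from its neighbours. It reached 18.9, 4.63 and 2.95 CPM in basal duct and 5.31, 2.78 and 0.28 CPM in basal TEB. In luminal duct it was at 0.41 and 0.04 CPM, and in luminal TEB at 0.65, 0 and 0.42 CPM. The duct groups did not overlap, as was so for 46% of all genes. The duct difference missed the threshold (log2 fold change 5.23 ± 2.07, adjusted p = 0.0927, edgeR), and so did that in TEBs (2.95 ± 1.55, adjusted p = 0.196). The likelihood ratio test (adjusted p = 0.0294) and DESeq2 (adjusted p = 0.0035) called Ereg in ducts. Over all genes, these tests called 5004 and 5122 there, against 3878 in the main test.

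The promoters of Areg, Btc and Epgn are shown because they lie in one cluster and were all lower in basal than in luminal TEB; in ducts Areg and Btc passed and Epgn did not. Each is the stretch of 250 bases before the annotated start, 5′ to 3′ on the strand of the gene, from RefSeq on GRCm38.p6, at chr5:91139349-91139598 (plus strand) for Areg, chr5:91402995-91403244 (minus strand) for Btc and chr5:91027267-91027516 (plus strand) for Epgn. Capitals mark matches, on either strand, to the cAMP response element TGACGTCA, its core TGACG, the GC box GGGCGG and the TATA box TATAAA.
Areg: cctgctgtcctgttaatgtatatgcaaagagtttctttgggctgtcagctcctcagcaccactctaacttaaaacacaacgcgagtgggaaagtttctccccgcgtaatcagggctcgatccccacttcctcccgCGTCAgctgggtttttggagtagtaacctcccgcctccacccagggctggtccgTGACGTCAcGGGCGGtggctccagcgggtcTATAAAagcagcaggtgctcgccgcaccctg
Btc: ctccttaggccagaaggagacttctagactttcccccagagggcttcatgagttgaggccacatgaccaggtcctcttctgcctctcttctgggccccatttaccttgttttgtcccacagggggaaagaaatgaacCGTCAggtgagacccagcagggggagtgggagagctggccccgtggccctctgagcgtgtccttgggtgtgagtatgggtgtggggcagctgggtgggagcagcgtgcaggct
Epgn: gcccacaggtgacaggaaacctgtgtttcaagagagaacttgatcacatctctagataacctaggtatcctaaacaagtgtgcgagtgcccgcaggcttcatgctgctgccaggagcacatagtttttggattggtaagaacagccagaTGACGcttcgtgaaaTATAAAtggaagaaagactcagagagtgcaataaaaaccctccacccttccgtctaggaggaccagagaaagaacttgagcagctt
The Areg window held the full element starting at position -61, counting -1 as the base before the start, with the core on each strand inside it and 1 more core match at -115, a GC box at -52 and a TATA box at -31. The Btc window held 1 core match at -113 on the opposite strand, and the Epgn window 1 core match at -101 and a TATA box at -86. No window was available for Ereg, the other gene of the cluster. Outside the cluster, the Erbb2 window held 1 core match at -171, and the Egfr and Tgfa windows held GC boxes and no core match. Of 32851 promoter windows of this length, 1.55% held the full element, 17.8% the core, 32.7% the GC box and 12.4% the TATA box. These matches describe the letters of the windows, and binding there was not measured.

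Tgfa, which encodes transforming growth factor alpha, was the ligand most evenly shared between the populations. It stood at 27.3, 14.2 and 32.0 CPM in basal duct and 25.1 and 12.4 CPM in luminal duct. In TEBs it stood at 47.2, 52.0 and 54.7 CPM in basal cells and 43.7, 44.2 and 48.0 CPM in luminal cells. The basal and luminal groups overlapped in both regions, and neither difference passed the test (log2 fold change 0.38 ± 0.36 in ducts, adjusted p = 0.479, and 0.18 ± 0.31 in TEBs, adjusted p = 0.729, edgeR).

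Hbegf, heparin-binding EGF-like growth factor, was steady in luminal cells and varied in basal cells. Luminal duct held 51.1 and 61.5 CPM and luminal TEB 57.8, 57.8 and 58.0 CPM. Basal duct held 39.4, 42.4 and 9.31 CPM and basal TEB 17.5, 6.61 and 6.97 CPM. Hbegf was lower in basal than in luminal TEB (log2 fold change -2.49 ± 0.52, adjusted p = 0.00392, edgeR), and by -3.09 without basal TEB replicate 1. In ducts all basal libraries also lay below both luminal libraries, where 46% of all genes had groups that did not overlap. The duct difference of -0.89 ± 0.54 did not pass (adjusted p = 0.266, edgeR).

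Nrg1, neuregulin 1 (chromosome 8, 31807452 to 32891609), was the ligand with the highest mean level in basal cells. It measured 57.9, 31.3 and 77.4 CPM in basal duct and 164, 116 and 142 CPM in basal TEB. In basal duct replicate 2 Hbegf was higher (42.4 CPM), and in basal TEB replicate 2 Nrg2 was also at 116 CPM. Luminal duct held 3 Nrg1 reads in all and luminal TEB 17, or 0.04 to 0.22 CPM per library. The ratio of basal to luminal duct was 1272.2 (exact 95% interval of counting error 435.2 to 6170.6), and in TEBs the log2 fold change was 10.21 ± 0.53 (adjusted p = 1.85e-07, edgeR) and 10.96 without luminal TEB replicate 1. The duct difference also passed (adjusted p = 2.56e-06, edgeR). Fibroblast markers were likewise higher in basal than in luminal libraries, except that their range in basal TEB (226 to 406 CPM) took in luminal duct replicate 3, and all 6 listed markers had reads in 9 of the 11 libraries; their part in the basal levels of Nrg1, Nrg2 and Egfr was not tested.

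The other neuregulins were also split. Nrg2 followed Nrg1, with 47.9, 23.5 and 65.9 CPM in basal duct, 102, 116 and 89.4 CPM in basal TEB and 0.49 to 2.41 CPM in luminal libraries. It was higher in basal cells by 4.29 ± 0.53 in ducts (log2 fold change, adjusted p = 1.11e-04, edgeR) and by 6.57 ± 0.49 in TEBs (adjusted p = 1.81e-06). Nrg4 took the luminal side, at 23.1 and 44.9 CPM in luminal duct and 11.1, 11.4 and 8.13 CPM in luminal TEB, against 0.06 to 4.68 CPM in basal libraries. Its difference of -4.09 ± 1.10 in ducts passed (adjusted p = 0.0187, edgeR) and was lost without basal duct replicate 1 (adjusted p = 0.0623), basal duct replicate 3 (0.0671) or luminal duct replicate 3 (0.0864). In TEBs Nrg4 passed narrowly (-2.98 ± 1.01, adjusted p = 0.0496, edgeR) and missed the threshold in 15 of 24 alternatives. Egf itself did not exceed 3.08 CPM in any library and Nrg3 did not exceed 0.51 CPM. The annotated span of Nrg2 overlaps that of Psd2, and the span of Nrg4 that of Fbxo22. Whether exons are shared was not examined. Reads in a shared exon could not be told apart in a kit that does not mark strand.

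**Figure D2:**
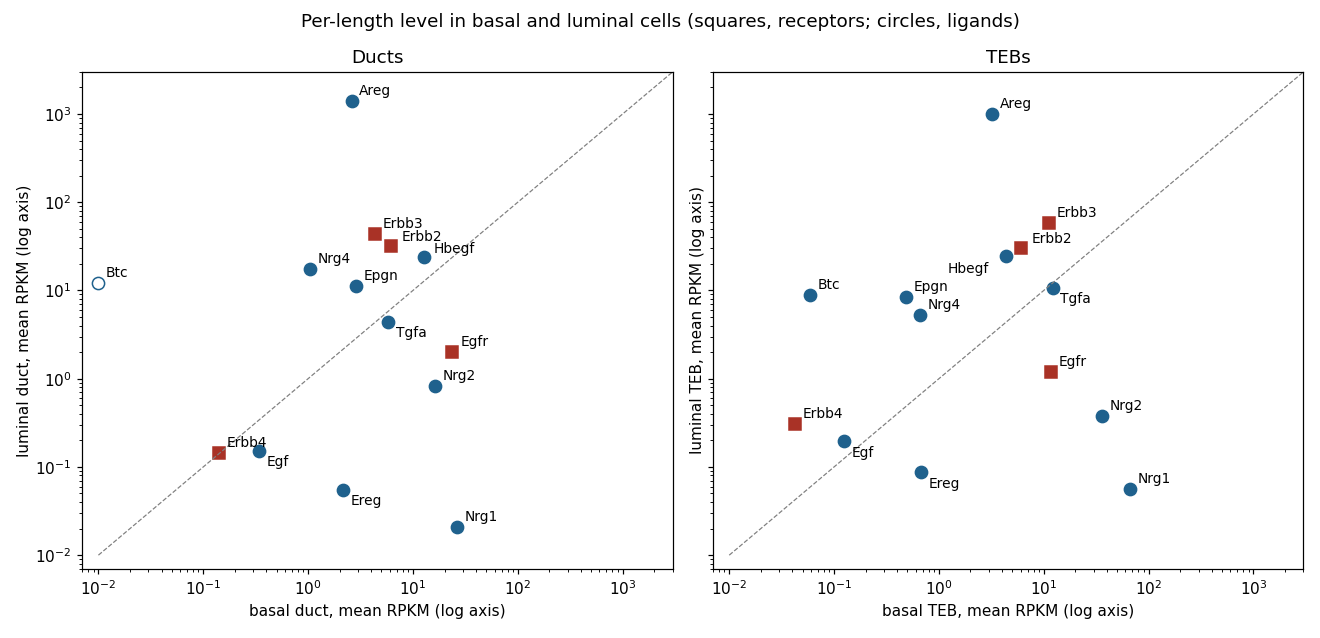
Mean RPKM (CPM per kilobase of exon) of the ligands (circles) and receptors (squares) in basal (x axis) and luminal cells (y axis), both log axes, for ducts (left) and TEBs (right); the dashed line marks equal levels and the open circle a value under the axis minimum of 0.01. Areg has the highest luminal level and lies far above the line with Btc, Nrg1 lies farthest below it, and Erbb2 and Erbb3 lie above and Egfr below.

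Among the receptors, Egfr (chromosome 11, 16752203 to 16913907) was the basal one. It measured 151, 150 and 159 CPM in basal duct and 63.0, 86.5 and 75.6 CPM in basal TEB. Luminal duct held 9.86 and 16.0 CPM and luminal TEB 5.49, 10.97 and 6.40 CPM. No luminal library reached any basal library, and Egfr was higher in basal cells by 3.57 ± 0.35 in ducts (log2 fold change, adjusted p = 2.01e-05, edgeR) and by 3.30 ± 0.29 in TEBs (adjusted p = 5.95e-06, edgeR). Luminal cells kept 6.42 to 10.4% of the basal Egfr level in ducts and 7.32 to 14.6% in TEBs. The summed basal markers stood in the same libraries at 0.486 to 1.37% and 0.207 to 0.377% of their basal mean. Egfr overlaps the non-coding gene Egfros, which was counted at 1191 reads over all libraries beside 29342 for Egfr.

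Erbb2 and Erbb3 were higher in luminal cells and present in basal cells. Erbb2 measured 101 and 218 CPM in luminal duct, 140, 154 and 164 CPM in luminal TEB, 25.1, 25.7 and 41.9 CPM in basal duct and 32.9, 31.1 and 27.4 CPM in basal TEB. The groups did not overlap, and the log2 fold change of basal against luminal was -2.37 ± 0.31 in ducts (adjusted p = 1.62e-04, edgeR) and -2.32 ± 0.29 in TEBs (adjusted p = 8.53e-05, edgeR). Without luminal duct replicate 3, the highest library, the duct value was -1.72. The annotated span of Erbb2 (chromosome 11, 98412484 to 98437716) overlaps that of Mien1. Whether exons are shared was not examined, and reads in a shared exon could not be assigned to one gene by strand.

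Erbb3 (chromosome 10, 128567523 to 128589635) measured 151 and 202 CPM in luminal duct and 221, 237 and 238 CPM in luminal TEB. Basal TEB held 41.7, 51.2 and 43.4 CPM. Basal duct was uneven, with 8.48 and 5.05 CPM in replicates 1 and 2 and 39.3 CPM in replicate 3. Erbb3 was lower in basal cells by -3.33 ± 0.62 in ducts (log2 fold change, adjusted p = 0.00223, edgeR), a value of -4.70 without basal duct replicate 3, and by -2.35 ± 0.57 in TEBs (adjusted p = 0.00952, edgeR). In basal libraries Erbb2 stood at 15.7 to 26.2% of its luminal level in ducts and 18.0 to 21.6% in TEBs, and Erbb3 at 2.86 to 22.3% and 18.0 to 22.1%, beside the 2.84 to 3.95% of the summed luminal markers.

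Erbb4 was scarce in every library, at 0 to 2.50 CPM. The highest value was in luminal TEB replicate 2, no comparison of Erbb4 passed the test, and the lowest adjusted p among basal and luminal comparisons was 0.386 (edgeR). No library held more than 131 Erbb4 reads, and the groups overlapped in all 4 comparisons of TEB with duct and of basal with luminal cells.

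Receptor make-up was compared as each gene's share of the summed RPKM of the 4 receptors, which corrects for transcript length. In basal duct Egfr made up 70.7 ± 11.6% (SD, n = 3), Erbb2 17.7 ± 1.54% and Erbb3 11.3 ± 9.95%. In basal TEB Egfr made up 39.9 ± 2.92% (SD, n = 3), Erbb2 21.1 ± 3.02% and Erbb3 38.8 ± 0.33%. The Egfr share of every basal TEB library (36.6 to 41.9%) was under that of every basal duct library (57.3 to 78.2%). In luminal cells Erbb3 made up 57.5 ± 7.56% (SD, n = 2) in ducts and 64.3 ± 0.98% (n = 3) in TEBs, Erbb2 39.7 and 34.0%, and Egfr 2.57 and 1.31%. Summed receptor RPKM was 34.5 ± 7.50 in basal duct, 29.1 ± 3.02 in basal TEB, 78.0 ± 26.1 in luminal duct and 89.7 ± 4.95 in luminal TEB. These shares are descriptions and were not tested.

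Among the 6 ligands, Areg made up 97.0 ± 0.85% (SD, n = 2) of the summed RPKM in luminal duct and 95.5 ± 1.19% (n = 3) in luminal TEB. In basal cells Nrg1 led with 52.2 ± 16.2% in ducts and 76.3 ± 4.25% in TEBs (SD, n = 3 each). Hbegf followed in basal duct with 27.7 ± 20.1% and Tgfa in basal TEB with 14.1 ± 2.39%. Nrg2 and the other family ligands were not among the 6 and were left out of these shares and sums. Nrg2 averaged 16.1 RPKM in basal duct, beside 12.8 RPKM for Hbegf, and 36.2 RPKM in basal TEB, beside 12.1 RPKM for Tgfa. Summed ligand RPKM was 49.7 ± 11.3 in basal duct, 87.3 ± 10.4 in basal TEB, 1453 ± 828 in luminal duct and 1049 ± 426 in luminal TEB. RPKM used the single exon length deposited for each gene, so transcripts of different length from one gene were not separated.

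**Figure D3:**
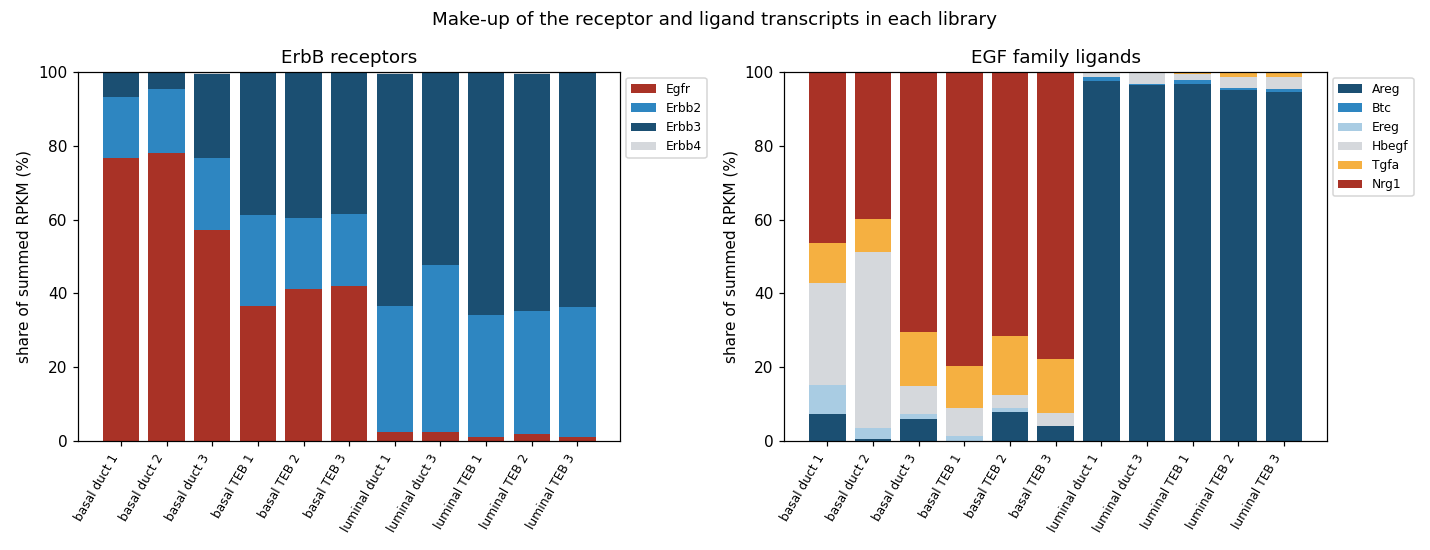
Share of summed RPKM (y axis, %) that each receptor (left) or ligand (right) made up in each of the 11 libraries (x axis). Egfr makes up 57.3 to 78.2% of receptor transcript in basal duct libraries and 36.6 to 41.9% in basal TEB libraries, and Areg fills at least 94.6% of ligand transcript in every luminal library.

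Within basal cells, TEB was compared with duct to see which of these genes differ between the growing tip and the subtending duct. None of the 10 passed an FDR of 0.05 in the edgeR quasi-likelihood test, against 1.32% of all genes tested, and 6 had an unadjusted p under 0.05. In 4 of the 10, Egfr, Erbb3, Tgfa and Nrg1, the TEB and duct libraries did not overlap, against 20.8% of all genes. Egfr was on average 153 CPM in basal duct and 75.0 CPM in basal TEB (log2 fold change -1.03 ± 0.27, adjusted p = 0.0998, edgeR). Nrg1 was on average 55.5 CPM in basal duct and 141 CPM in basal TEB (1.34 ± 0.34, adjusted p = 0.0936, edgeR). Tgfa differed by 1.07 ± 0.32 (adjusted p = 0.151, edgeR), Hbegf by -1.56 ± 0.51 (adjusted p = 0.189, edgeR) and Erbb3 by 1.37 ± 0.56 (adjusted p = 0.293, edgeR). The remaining gene with an unadjusted p under 0.05 was Btc (adjusted p = 0.300, edgeR), with 1 read in basal duct and 24 in basal TEB. All 24 came from replicate 2.

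The basal calls depended on the test and on 1 library. The likelihood ratio test of edgeR called 2 of the 10, Egfr (adjusted p = 0.0179) and Nrg1 (adjusted p = 0.0144). DESeq2 and limma voom called 4 each, both including Egfr (0.0118 and 0.00598), Nrg1 (0.0171 and 0.00941) and Tgfa (0.0498 and 0.0398), with Hbegf added by DESeq2 (0.0427) and Erbb3 by voom (0.034). A fit of the basal libraries alone called Egfr (0.0345), and 183 of 15150 genes in all. Over all 17370 genes, the main test called 230, the likelihood ratio test 707, DESeq2 874 and voom 601. Without basal duct replicate 3, the edgeR quasi-likelihood test called Erbb3 (2.74, adjusted p = 0.00113) and Hbegf (-1.99, adjusted p = 0.0314). That library was the one with high Erbb3 and low Hbegf among the basal duct libraries. Summed basal markers were 15633 to 19662 CPM in basal duct and 5570 to 8614 CPM in basal TEB, and summed fibroblast markers were also lower in basal TEB; their part in these differences was not tested.

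Within luminal cells, none of the 10 passed (1.41% of all genes did), and 2 had an unadjusted p under 0.05. The groups did not overlap in 3 of the 10 (Tgfa, Erbb3 and Nrg1), against 43.7% of all genes with 2 duct libraries. Tgfa averaged 18.8 CPM in luminal duct and 45.3 CPM in luminal TEB (log2 fold change 1.27 ± 0.37, adjusted p = 0.114, edgeR). Tgfa was called by the likelihood ratio test (adjusted p = 0.0351) and by DESeq2 (0.0295). Over all genes, these tests called 1006 and 1277, against 245 in the main test. Without luminal duct replicate 1 the log2 fold change of Tgfa was 1.87. Egfr differed by -0.76 ± 0.30 (adjusted p = 0.228, edgeR), and Areg by -0.49 ± 0.98 (adjusted p = 0.846, edgeR). Summed basal markers were 86.6 CPM in luminal duct replicate 1, 243.6 CPM in replicate 3 and 13.9 to 25.4 CPM in luminal TEB, and fibroblast markers were highest in luminal duct replicate 3 (249.7 CPM); their part in the luminal differences was not tested. For the difference between the basal and luminal responses (the interaction), 0 of the 10 passed, 1 had an unadjusted p under 0.05 and the lowest adjusted p was 0.319 (edgeR), against 0.443% of all genes called.

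**Figure D4:**
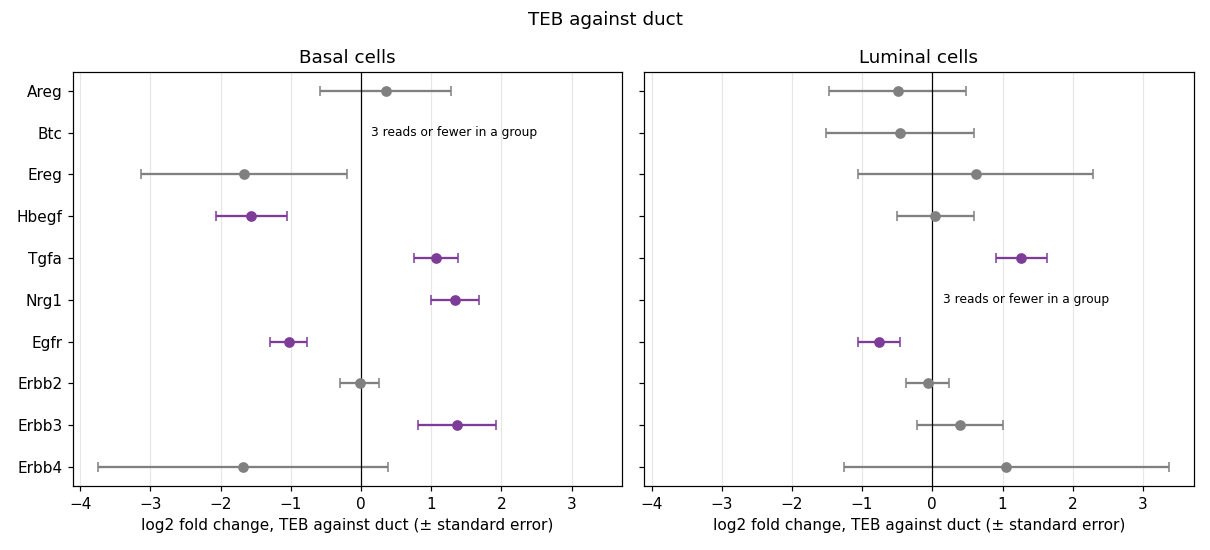
Log2 fold change of TEB against duct (x axis, ± standard error) for the 10 genes in basal (left) and luminal cells (right); purple points have an unadjusted p under 0.05, grey points do not, and no fold is drawn where a group held 3 reads or fewer. No gene passed the adjusted threshold, and Egfr lies below 0 and Tgfa above 0 in both panels.

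Hormone receptors and hormone-responsive genes were set beside Areg. Of 7 such genes, of which Esr1, Pgr and Prlr also counted among the luminal markers, 5 were lower in basal cells in ducts (9.71% of all genes) and 5 in TEBs (11.8% of all genes). Their median difference on the log2 scale was -6.84 in ducts (all genes 0.08) and -5.20 in TEBs (all genes 0.04). Esr1, the oestrogen receptor, was at 62.6 ± 5.14 CPM in luminal duct (SD, n = 2) and 118 ± 8.92 CPM in luminal TEB (n = 3), and at 0 to 4.13 CPM in basal libraries. Its log2 fold change of basal against luminal was -4.56 ± 0.89 in ducts (adjusted p = 0.00284, edgeR) and -6.11 ± 0.93 in TEBs (adjusted p = 3.96e-04). Pgr, the progesterone receptor, was lower in basal cells by -4.56 ± 0.43 and -3.85 ± 0.40 (adjusted p = 1.65e-05 and 2.38e-05, edgeR). Greb1, another oestrogen target, did not pass in either region (adjusted p = 0.53 and 0.337, edgeR). It averaged 6.44 CPM in basal duct and 14.4 CPM in luminal duct, but 10.1 CPM in basal TEB and 3.35 CPM in luminal TEB. Prlr, the prolactin receptor, and Wnt4, a progesterone-responsive Wnt ligand, were among the 5 in both regions. None of the 7 passed between TEB and duct in basal or in luminal cells, where 0 of 7 also had an unadjusted p under 0.05 in edgeR.

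Genes that process the ligands were measured for the same groups. Of 8 such genes, 4 passed between basal and luminal duct (22.3% of all genes) and 5 between basal and luminal TEB (25.1% of all genes). Timp3, an inhibitor of the sheddase Adam17, was at 456, 560 and 453 CPM in basal duct, 210, 229 and 199 CPM in basal TEB, 24.5 and 62.3 CPM in luminal duct and 6.37, 10.2 and 6.28 CPM in luminal TEB. It was higher in basal cells by 3.50 ± 0.39 in ducts and 4.80 ± 0.35 in TEBs (log2 fold change, adjusted p = 5.38e-05 and 1.52e-06, edgeR). It was lower in luminal TEB than in luminal duct (-2.51 ± 0.34, adjusted p = 0.00864, edgeR). In the same comparison 6 of the 7 basal markers were lower in luminal TEB, at 13.9 to 25.4 CPM summed against 86.6 to 243.6 CPM in luminal duct, and their part in the difference of Timp3 was not tested. Rhbdf2, an inactive rhomboid that carries Adam17 to the cell surface, was lower in basal cells by -1.54 ± 0.23 and -2.76 ± 0.22 (adjusted p = 4.11e-04 and 2.94e-06, edgeR). In basal TEB, at 11.9, 12.8 and 10.5 CPM, Rhbdf2 was also lower than in basal duct, at 34.1, 29.2 and 22.5 CPM (-1.29 ± 0.21, adjusted p = 0.0116, edgeR). Adam10, the sheddase of Btc and Egf, was lower in basal cells by -1.75 ± 0.24 and -2.12 ± 0.22 (adjusted p = 2.24e-04 and 2.54e-05, edgeR). Adam12, a membrane protease known to cleave Hbegf, had 589, 422 and 347 reads in basal duct and none in luminal duct, which allows up to 0.044 CPM over that group. It had 0, 198 and 151 reads in basal TEB and 1, 39 and 6 in luminal TEB. There Timp3 was the only gene of the list that passed as higher in basal cells. The median of the list was -0.12 in ducts and -0.62 in TEBs.

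Feedback inhibitors and response genes of ERK, the kinase downstream of these receptors and of other receptor tyrosine kinases, were measured in the same groups. Of 20 negative regulators, 9 were higher in basal than in luminal duct (12.6% of all genes) and 3 lower (9.71% of all genes). In TEBs 6 were higher (13.2% of all genes) and 2 lower (11.8% of all genes). Their median log2 fold change was 0.80 in ducts and 0.27 in TEBs. Dusp6, an ERK phosphatase, was at 694, 791 and 748 CPM in basal duct, 570, 921 and 754 CPM in basal TEB, 232 and 241 CPM in luminal duct and 117, 151 and 112 CPM in luminal TEB. The difference was 1.65 ± 0.24 in ducts and 2.56 ± 0.21 in TEBs (log2 fold change, adjusted p = 3.63e-04 and 4.10e-06, edgeR). Spry1, a Sprouty inhibitor of the pathway, was higher in basal cells by 2.29 ± 0.28 and 2.30 ± 0.24, and Spred1, a related inhibitor, by 1.99 ± 0.24 and 1.28 ± 0.20. Lrig1, which promotes degradation of ErbB receptors, was higher by 1.83 ± 0.30 in basal duct (adjusted p = 9.07e-04, edgeR). The lower ones, named after their values were seen, were Cblc and Dusp4 in both regions and Socs4 in ducts. None of the 20 passed between TEB and duct in edgeR, with 5 at an unadjusted p under 0.05 in basal cells and 4 in luminal cells.

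Of 10 ERK response genes, 7 were higher in basal than in luminal duct (12.6% of all genes) and 6 in TEBs (13.2% of all genes), with none lower, and their median was 1.31 and 0.81. Etv5, an Ets factor induced by ERK, was at 222, 151 and 308 CPM in basal duct, 278, 495 and 379 CPM in basal TEB, 22.5 and 16.8 CPM in luminal duct and 22.0, 25.2 and 17.4 CPM in luminal TEB. Etv5 was higher in basal cells by 3.53 ± 0.37 and 4.16 ± 0.32, and its relative Etv4 by 3.66 ± 0.42 and 3.83 ± 0.35 (adjusted p at most 6.14e-05 for all 4 values, edgeR). Myc was higher by 2.43 ± 0.30 and 1.47 ± 0.25. Between basal TEB and duct, 2 of the 10 passed. Fos and Junb, both immediate-early genes, were lower in basal TEB by -1.52 ± 0.28 and -1.38 ± 0.26 (log2 fold change, adjusted p = 0.0239 and 0.0265, edgeR), and the list's median was -0.87 (all genes -0.03). Of the 10, 3 had values above 0 in basal TEB without passing, Etv4 (1.13 ± 0.32, adjusted p = 0.124, edgeR), Etv5 (0.76 ± 0.28, adjusted p = 0.248, edgeR) and Phlda1 (0.54 ± 0.22, adjusted p = 0.301, edgeR), the last named after its values were seen. None passed in luminal cells, with 2 at an unadjusted p under 0.05. No gene of 5 pathway lists passed the interaction test in edgeR, with 1 to 5 genes per list at an unadjusted p under 0.05. The lists were other family ligands, ligand processing, adaptors and transducers, negative regulators and ERK response genes. The likelihood ratio test called 7 of their genes and DESeq2 8. Over all genes, these tests called 629 and 712 in the interaction, against 77 in the main test.

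**Figure D5:**
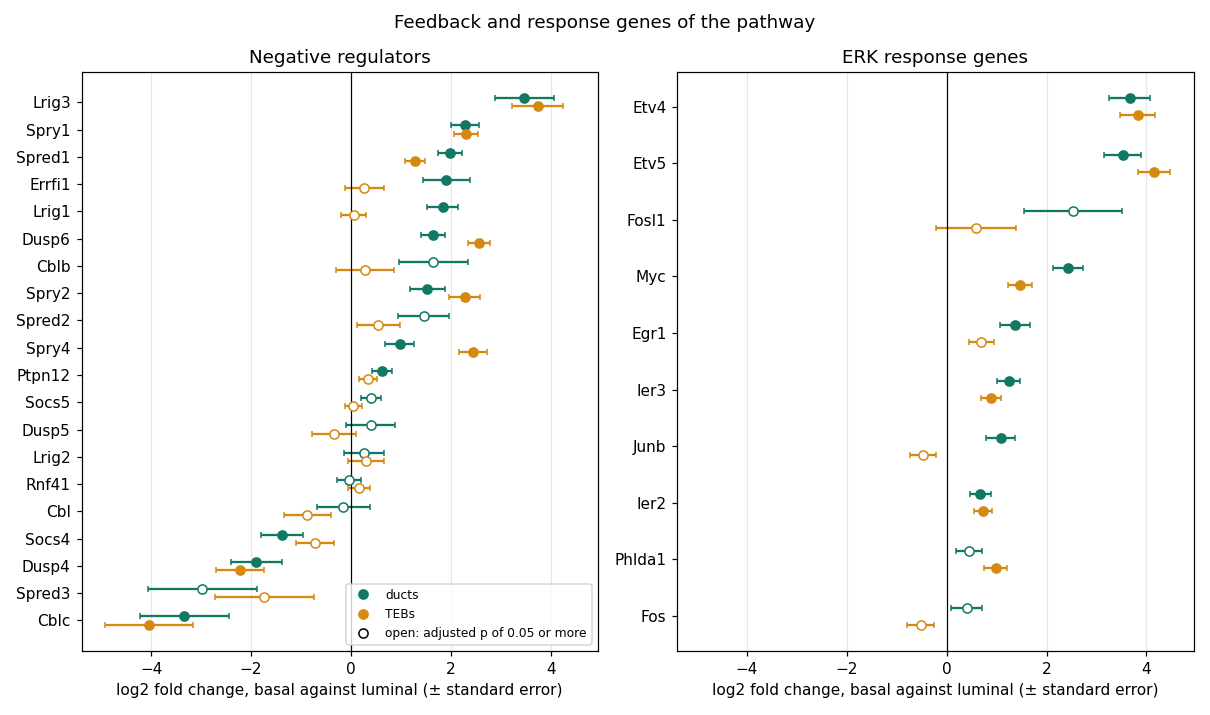
Log2 fold change of basal against luminal cells (x axis, ± standard error) in ducts (green) and TEBs (orange) for negative regulators (left) and ERK response genes (right); filled points passed an adjusted p of 0.05. Etv4, Etv5, Myc, Spry1, Spred1 and Dusp6 are filled and above 0 in both regions, and Cblc and Dusp4 are filled and below 0.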

How the data were processed

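Paired reads of 80 bp had been mapped by the authors to mm10 and assigned to Entrez genes in Rsubread (featureCounts, per the labels). The deposited values are whole, unnormalised counts, listed with a gene length. How reads in overlapping genes were handled is not given in the sources used here. Symbols came from RefSeq (GRCm38.p6) for 25275 of 27179 identifiers (93%). With R 4.3.3 and edgeR 4.0.16, genes were filtered by filterByExpr (minimum count 10, minimum total 15), libraries scaled by TMM and 1 quasi-likelihood model fitted over the 4 groups, with Benjamini-Hochberg adjustment over all 17370 genes at an FDR of 0.05. The common biological coefficient of variation was 0.704. The standard error is the absolute log2 fold change over the square root of F. CPM and RPKM use TMM-scaled library sizes, and RPKM the deposited length. A count of 0 allows up to 3 counts. Intervals and limits cover counting error only.

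Alternatives were other scalings, filters, prior counts and tests (likelihood ratio, DESeq2 1.42.0, limma voom 3.58.1), a fit of the compared groups, a block, an FDR of 0.01 and each library left out; 1 was added after seeing the data. Scripts were tested on simulated data. The members and lists were chosen with earlier results of these data known. Named are all members and family ligands, Esr1, Pgr and Greb1, and from each list up to 4 genes per comparison by adjusted p, and for Areg, Nrg1 and Egfr the 3 genes most alike. Replicates are mouse pools, and the authors dropped 1 luminal duct library that had too few cells.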

Additional observations from a re-analysis of the deposited data

How the results depend on the processing

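The members called were 7 between basal and luminal TEB under every alternative, and 6 in ducts under all but the likelihood ratio test and DESeq2, which called 7. For TEB against duct in basal cells, 0 were called, but 2 by the likelihood ratio test, 4 by DESeq2, 4 by limma voom, 1 in a fit of the compared groups and 0 to 2 with a library left out. In luminal cells the count was 0, but 1 by the likelihood ratio test, 1 by DESeq2 and 0 to 1 with a library left out, and for the interaction 0, and 0 to 1 with a library left out (1 without basal duct replicate 3). Of genes in 5 pathway lists (other family ligands, ligand processing, adaptors and transducers, negative regulators and ERK response genes, without the hormone genes), 5 were called in basal TEB against duct, and 0 with library size alone, 8 with no filter, 12 by the likelihood ratio test, 13 by DESeq2 and by voom, 3 in the compared groups, 3 without the 2 libraries highest in adipocyte markers (chosen after seeing the data), 1 at an FDR of 0.01 and 0 to 8 with a library left out (0 without basal TEB replicate 3). The lists held 4, 8, 22, 20 and 10 tested genes in that order. Over all genes, basal TEB against duct gave 230 calls, and 57 with library size alone. It gave 707 by the likelihood ratio test, 874 by DESeq2 and 601 by voom. Luminal TEB against duct gave 245, and 10 with library size alone. The ducts gave 3878. The interaction gave 77, with 141 unfiltered, 629 by the likelihood ratio test, 712 by DESeq2 and 95 by voom. In luminal cells the list count was 2, and 0 with library size alone, 5 in the compared groups, 1 with the replicate block, 1 at an FDR of 0.01 and 1 to 6 with a library left out (6 without luminal duct replicate 1). In ducts it was 33, with 20 at an FDR of 0.01 and 23 to 37 with a library left out, and for the interaction 0, with 2 unfiltered, 7 by the likelihood ratio test, 8 by DESeq2, 2 by voom and 0 to 5 with a library left out (5 without luminal duct replicate 1).

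In shares of CPM without length correction, Egfr made up 49.5% of receptors in basal TEB, 3.70% in luminal duct and 1.92% in luminal TEB, Erbb2 15.04% in basal duct and 38.8% in luminal TEB, and Erbb3 30.1% in basal TEB and 59.0% in luminal TEB. Areg made up 93.5% and 89.7% of ligands in luminal duct and TEB, and Nrg1 67.0% in basal TEB, 0.0028% in luminal duct and 0.00817% in luminal TEB.

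The direction turned only in differences that did not pass, and the cause was not tested. With a library left out, TEB against duct in basal cells ran from -0.46 to 0.96 for Areg, -1.80 to 6.00 for Btc, -0.18 to 0.26 for Erbb2 and -1.28 to 0.98 for Nrg4. In luminal cells it ran from -0.99 to 0.27 for Areg, -1.30 to 1.78 for Btc, -1.12 to 0.45 for Epgn, -0.51 to 0.59 for Erbb2, -0.20 to 3.03 for Ereg and -0.0859 to 0.18 for Hbegf, and between basal and luminal duct from -1.18 to 7.60 for Erbb4 and -0.0376 to 0.98 for Tgfa. Without the 2 libraries highest in adipocyte markers, Areg was at -0.16 and Nrg4 at 0.98 in basal cells, and Ereg at -0.18 and Erbb2 at 0.61 in luminal cells. Without libraries above 25% mitochondrial counts, Ereg was at -0.19 and Erbb2 at 0.61 in luminal cells, and Tgfa at -0.0322 between the ducts. With voom, Erbb2 was at 0.0172 in basal and 0.0919 in luminal cells, Ereg at -0.29 in luminal cells and Erbb4 at 0.58 between the ducts. With library size alone, which moved the median of all genes by -0.50 (interaction) to 0.38 (luminal cells), Erbb2 was at 0.38 in luminal cells and Tgfa at -0.22 between basal and luminal TEB. Hbegf in luminal cells was at -0.0292 with DESeq2 size factors, -0.0294 with DESeq2, -0.0103 with upper-quartile scaling and -0.000625 with the CPM filter.

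Replicate numbers were tested as pairs. Deviations of same-numbered libraries correlated at -0.07 to 0.16, with a median of 0.07 against -0.03 for the 30 other pairs and over 0.1 in 4 of 15 pairs against 2 of 30. Deviations were taken from group means, so the same-numbered and other pairs are not independent of each other. Luminal TEB replicate 1, for example, correlated at 0.16 with luminal duct replicate 1 and at -0.16 with luminal duct replicate 3. Of the libraries, 7 of 11 correlated best with one of their own number. Since not every pair passed 0.1 and no source used here says that a number marks a shared pool, the fit without the block was kept, and whether the numbers mark shared pools is not settled. The replicate block gave 204, 125, 3293, 4030 and 46 calls over all genes for basal cells, luminal cells, ducts, TEBs and the interaction, against 230, 245, 3878, 4354 and 77, and the members called were 0, 0, 6, 7 and 0. With the replicate block, Erbb2 was at 0.0389 in basal and 0.0374 in luminal cells, Hbegf at -0.0428 in luminal cells and Erbb4 at 0.36 between the ducts. With 2 luminal duct libraries, the luminal comparison had the least precision.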

Other observations

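Adaptors and transducers downstream of the ErbB receptors differed in both directions. Of 22 genes, 4 were higher (12.6% of all genes) and 4 lower (9.71%) in basal than in luminal duct, and 2 were higher (13.2%) and 6 lower (11.8%) in TEBs, with medians of -0.15 and -0.33 on the log2 scale. Plcg1, phospholipase C gamma, was higher in basal cells by 2.20 ± 0.21 and 2.64 ± 0.18 (adjusted p = 1.77e-05 and 1.04e-06, edgeR), and Hras by 1.01 ± 0.24 and 1.34 ± 0.21. Mapk3, which encodes the kinase ERK1, was lower in basal than in luminal TEB (-1.67 ± 0.18, adjusted p = 3.39e-05, edgeR) and in basal TEB than in basal duct (-0.93 ± 0.18, adjusted p = 0.0299). Pik3r1, a regulatory subunit of phosphoinositide 3-kinase, was at 297, 354 and 402 CPM in basal duct and 131, 153 and 129 CPM in basal TEB (-1.35 ± 0.20, adjusted p = 0.00687, edgeR). Araf, a RAF kinase, was lower in luminal TEB than in luminal duct (-1.21 ± 0.23, adjusted p = 0.0296, edgeR).

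Genes whose log2 CPM ran most like 3 of the family members over the 11 libraries were sought among 7863 genes, as a description. Areg was closest to Plekhb2 (Pearson r = 0.986), Vps26a (0.983) and Ppp1r7 (0.983). Nrg1 was closest to Lama1 (0.996), Reln (0.996) and Chsy1 (0.994), and Egfr to Gas1 (0.996), Pros1 (0.995) and Ptpre (0.994). The points share the split into basal and luminal libraries.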
